A study of Mus musculus with 6 samples.

Results

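The fibrillar collagens described here are Col1a1, Col1a2, Col3a1, Col5a1, Col5a2, Col5a3 and Col11a1, 7 of the 17178 genes that could be named on the array, and they were measured by 13 of its 41174 gene probes. Their probes were those whose RefSeq accession on the array belongs to 1 of these genes. RNA came from tooth germs of the lower first molar of newborn mice (postnatal day 0) of the inbred strain 129/Sv, all labelled male. By their labels, 3 samples were wild-type and 3 were Perp-null, that is, from mice without the desmosomal protein PERP, and no treatment is named for either group. The labels name no Cre driver or deleted exon, and they leave out the number of mice and litters behind a sample, so the p-values speak only of the spread among these samples, which may in part be technical. Each sample was labelled with Cy3 and hybridised to 1 one-colour array, and the number of arrays limits the precision.

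Fibrillar collagens are secreted as procollagens, 3 chains wound into a triple helix, which lose their end propeptides outside the cell and line up into cross-linked fibrils. Type I collagen is the main protein of dentin, bone and tendon, and type III is mixed into its fibrils in soft connective tissue, dental pulp included. Types V and XI are minor fibril collagens that sit in the core of the fibril and limit its width. In the tooth germ these chains are made mostly by the dental mesenchyme, the odontoblasts that arise from it and the surrounding follicle, whereas PERP is a protein of epithelial junctions and a target of p53 and p63.

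The chains of a type I molecule come in a fixed proportion and are made from separate genes, and the stretches upstream of the members' genes are shown first for comparison. RefSeq (GRCm38.p6) windows of 300 bases, 250 before and 50 after the gene's start, were found for 5 of the 7 members. None was found for Col1a1 or Col5a2, so the type I genes cannot be compared with each other here. The capitals mark a CCAAT box (CCAAT), a GC box (GGGCGG) or a TATA box (TATAAA), each searched on both strands. The window of Col1a2 lies at chr6:4505368-4505667 on the plus strand, that of Col3a1 at chr1:45311288-45311587 on the plus strand, and that of Col11a1 at chr3:114030290-114030589 on the plus strand. These 3 are printed because they belong to 3 fibril types and hold different letters.
Col1a2: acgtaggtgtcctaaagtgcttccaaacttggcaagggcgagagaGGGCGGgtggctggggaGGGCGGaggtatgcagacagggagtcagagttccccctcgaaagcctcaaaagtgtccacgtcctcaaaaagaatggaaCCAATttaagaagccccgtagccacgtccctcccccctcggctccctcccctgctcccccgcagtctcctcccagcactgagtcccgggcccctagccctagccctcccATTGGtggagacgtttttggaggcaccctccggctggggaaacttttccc
Col3a1: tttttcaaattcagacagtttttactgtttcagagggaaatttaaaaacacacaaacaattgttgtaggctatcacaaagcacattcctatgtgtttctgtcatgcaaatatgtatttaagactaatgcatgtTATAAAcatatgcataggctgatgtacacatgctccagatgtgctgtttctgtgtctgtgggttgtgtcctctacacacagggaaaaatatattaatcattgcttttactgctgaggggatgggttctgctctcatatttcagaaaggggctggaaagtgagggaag
Col11a1: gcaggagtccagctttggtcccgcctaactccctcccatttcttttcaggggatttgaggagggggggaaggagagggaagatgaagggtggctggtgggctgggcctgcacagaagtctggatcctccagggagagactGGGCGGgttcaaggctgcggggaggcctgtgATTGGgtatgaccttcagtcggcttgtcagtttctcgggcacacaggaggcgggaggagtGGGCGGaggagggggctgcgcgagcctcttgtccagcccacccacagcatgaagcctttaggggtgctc
The Col1a2 window held 2 CCAAT and 2 GC matches, the Col11a1 window held 1 CCAAT and 2 GC matches, and the Col3a1 window held 1 TATA match and neither of the others. Of the 5 windows, 3 held a CCAAT match, 4 a GC match and 1 a TATA match. Among all 32851 windows of the same length, 37.4% held a CCAAT match, 35.7% a GC match and 13.6% a TATA match. A match is a run of letters and not a measured binding site.

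2 sets of values were deposited, and they did not assign the arrays to the samples in the same way. The scanner files hold 1 array per sample, and the authors' value table holds 1 column of log2 values per sample. Ranked over all 41174 probes, 5 of the 6 columns matched a scanner file with Spearman's rho of 1.0000, and the highest rho of any other pairing was 0.9884. Only 1 of these columns carried its own file's label. Column WT1 matched file WT1, column WT2 matched file WT3, and column PN3 matched file PN2, so 3 arrays had the same labelled genotype in both places. Column WT3 matched file PN1, and column PN1 matched file WT2, so 2 arrays had opposite genotypes. Column PN2 matched no file and file PN3 matched no column, which makes 7 distinct arrays in all. Each value below is therefore said to come from a file or from a column, and every group is the one labelled there.

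**Figure D1:**
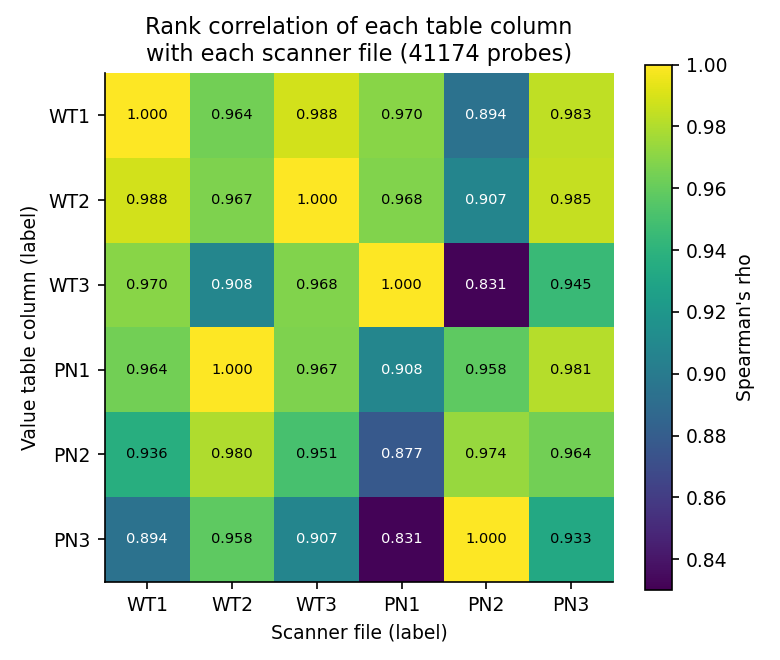
Spearman's rho over 41174 probes between each column of the authors' value table (rows, by label) and each scanner file (columns, by label), with rho printed in each cell and coloured from 0.83 to 1. The 5 cells at 1.000 link a column to its array, and only the cell of WT1 with WT1 lies on the diagonal.

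Perp checks the labels. Set against its array's own 75th percentile, its log2 signal in the scanner files was 5.96, −5.06 and 5.91 on files WT1, WT2 and WT3, and 5.87, −6.81 and 5.97 on files PN1, PN2 and PN3. It went against the label on 3 files, WT2, PN1 and PN3. The same probe gave 17.01, 16.95 and 16.98 in the wild type columns and 7.51, 8.24 and 7.26 in the Perp-null columns of the value table, so it followed the label in all 6. Xist and the Y-linked genes went against the male label on 3 arrays in either source. In the scanner files each labelled group was on a slide of its own, so slide and labelled group cannot be told apart there.

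Of all gene probes, 72.8% to 82.3% were well above background on an array, and no collagen probe was saturated or flagged as an outlier. All 13 collagen probes were well above background on all 6 arrays. The negative control spots differed in brightness, with median raw signals of 90, 37.5 and 80 on files WT1, WT2 and WT3 and of 127, 32 and 65.5 on files PN1, PN2 and PN3. Defining genes of the labelled tissue were present: 10 of 10 markers of dental mesenchyme and fibroblasts, 9 of 9 of odontoblasts and bone that could be named on the array, and 9 of 9 of dental epithelium were well above background on all 6 arrays. So were 7 of 7 skeletal muscle markers and 7 of 8 cartilage markers.

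Compared with the wild type files, the Perp-null files had lower means for all 7 fibrillar collagens, and none passed the test. Their median log2 difference was −0.69, with a range of −0.91 to −0.36, beside a median of −0.08 over all 26677 features tested. No feature was called at an adjusted p under 0.05, 0% of the 26677 (limma, Benjamini-Hochberg adjustment), while 630 (2.36%) had an unadjusted p under 0.05 and 61% had a lower mean. Of the 7 collagens, 2 had an unadjusted p under 0.05. By the labels of the value table, 4 of the 7 collagens had a lower mean, beside 48.7% of all features, and 3 had a higher one. None passed the test, the smallest adjusted p was 0.542 (limma), and the median was −0.08 with a range of −0.33 to 0.35. There 6269 features were called, 23.5% of the 26677 (14.9% as lower), 35.8% had an unadjusted p under 0.05, and the median over all features was 0.01. None of the 7 had an unadjusted p under 0.05 there. The groups overlapped for all 7 in the value table, where 24.4% of features had separated groups with Perp-null lower and 18.8% with Perp-null higher. The lower means of all 7 members were thus seen with the labels of the scanner files and not with those of the value table. The labelled groups of the files were mixed in Perp signal, at −5.06 on file WT2 and 5.87 and 5.97 on files PN1 and PN3. A difference between them can therefore not be read as one between genotypes.

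**Figure D2:**
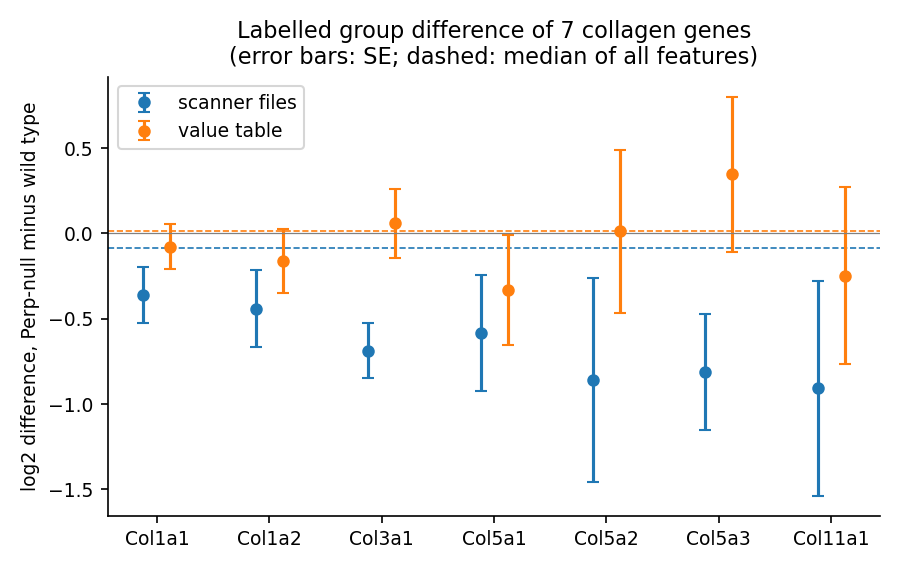
Log2 difference between labelled groups (Perp-null minus wild type, vertical axis) of the 7 fibrillar collagens, from the scanner files (blue) and the value table (orange), 3 arrays per group; points are limma estimates, bars 1 standard error, dashed lines the median of all features. All 7 blue points lie below 0, from −0.91 to −0.36, and the orange points lie on both sides of it, from −0.33 to 0.35.

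Type I collagen is built from the chains of Col1a1 and Col1a2. Their brightest probes had the smallest differences of the 7 in the files, which was not so in the value table or for the mean of a gene's probes, where Col1a1 was at −0.97 in the files. For Col1a1, the α1 chain, the brightest probe (A_52_P525107) gave log2 signals relative to the 75th percentile of 5.19, 5.25 and 4.85 on files WT1, WT2 and WT3 and of 4.80, 4.52 and 4.88 on files PN1, PN2 and PN3. The labelled groups overlapped, with file PN3 above file WT3. The log2 difference was −0.36 (SE 0.16), a 1.28-fold lower mean, with an adjusted p of 1.00 (limma). The same probe gave 16.06, 15.83 and 15.84 in the wild type columns and 16.04, 15.85 and 15.61 in the Perp-null columns, and the difference was −0.08 (SE 0.13; limma adjusted p = 0.748). For Col1a2, the α2 chain, the 1 probe gave 6.38, 6.41 and 6.10 on the wild type files and 5.91, 5.44 and 6.22 on the Perp-null files. Files PN1 and PN2 lay below all wild type files, and file PN3 lay above file WT3. The difference was −0.44 (SE 0.22), 1.36-fold lower, with an adjusted p of 1.00 (limma). In the columns Col1a2 read 17.33, 17.15 and 16.90 for wild type and 17.32, 16.97 and 16.60 for Perp-null, and the groups overlapped, with a difference of −0.16 (SE 0.19; limma adjusted p = 0.611).

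Col3a1, the single chain of type III collagen, was the 1 member whose labelled groups did not overlap in the files. Its brighter probe (A_51_P515605) gave 4.77, 4.88 and 4.72 on files WT1, WT2 and WT3 and 3.81, 4.15 and 4.35 on files PN1, PN2 and PN3. The difference was −0.69 (SE 0.16), 1.61-fold lower, with an unadjusted p under 0.05 and an adjusted p of 1.00 (limma), and 3.49% of all features had groups separated in this direction. The wild type columns read 15.78, 15.68 and 15.05 and the Perp-null columns 15.79, 15.52 and 15.38. Among the columns the lowest and next to highest values were both wild type, and the difference was 0.06 (SE 0.20; limma adjusted p = 0.879). The lowest Col3a1 signal in either source came from the same array, file PN1 and column WT3.

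Of the chains of type V collagen, Col5a1 (α1) gave 2.96, 2.51 and 3.20 on the wild type files and 1.99, 1.89 and 3.04 on the Perp-null files with its brighter probe (A_51_P414637). Files PN1 and PN2 lay below the wild type files and file PN3 within them, and the difference was −0.58 (SE 0.34; limma adjusted p = 1.00). In the columns this probe read 13.89, 14.15 and 13.09 against 13.46, 13.84 and 12.84, with a difference of −0.33 (SE 0.32; limma adjusted p = 0.542). Col5a2 (α2), which lies next to Col3a1 in the genome with no other protein-coding gene between them, gave 2.12, 2.44 and 2.03 on the wild type files and 0.24, 0.99 and 2.79 on the Perp-null files. File PN3 was the highest of the 6 and file PN1 the lowest, and the standard deviation was 1.31 among the Perp-null files against 0.22 among the wild type files (n = 3 each). Its difference was −0.86 (SE 0.60; limma adjusted p = 1.00). In the columns Col5a2 read 13.10, 12.94 and 11.40 against 13.11, 12.52 and 11.85, so that a wild type column was the lowest, and the difference was 0.01 (SE 0.48; limma adjusted p = 0.990). Col5a3 (α3), a chain of a less common form of type V, gave 0.14, 0.57 and 0.53 on the wild type files and −1.09, 0.20 and −0.30 on the Perp-null files with its brighter probe (A_51_P241995). File PN2 lay within the wild type range, and the difference was −0.81 (SE 0.34), with an unadjusted p under 0.05 and an adjusted p of 1.00 (limma). In the columns it read 11.23, 11.47 and 9.68 against 11.18, 11.49 and 10.75, with a difference of the opposite sign, 0.35 (SE 0.45; limma adjusted p = 0.662).

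Col11a1, the α1 chain of type XI collagen, had the largest difference of the 7 in the files and one of the widest spreads. Its brighter probe (A_51_P459477) gave 3.07, 3.24 and 2.61 on the wild type files and 1.28, 1.28 and 3.64 on the Perp-null files. File PN3 was the highest of all 6, and files PN1 and PN2 were the lowest. The standard deviation was 1.36 among the Perp-null files and 0.32 among the wild type files (n = 3 each), and the difference was −0.91 (SE 0.63), 1.87-fold lower (limma adjusted p = 1.00). In the columns it read 14.10, 13.57 and 12.35 against 13.98, 13.05 and 12.25, and the difference was −0.25 (SE 0.52; limma adjusted p = 0.801).

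**Figure D3:**
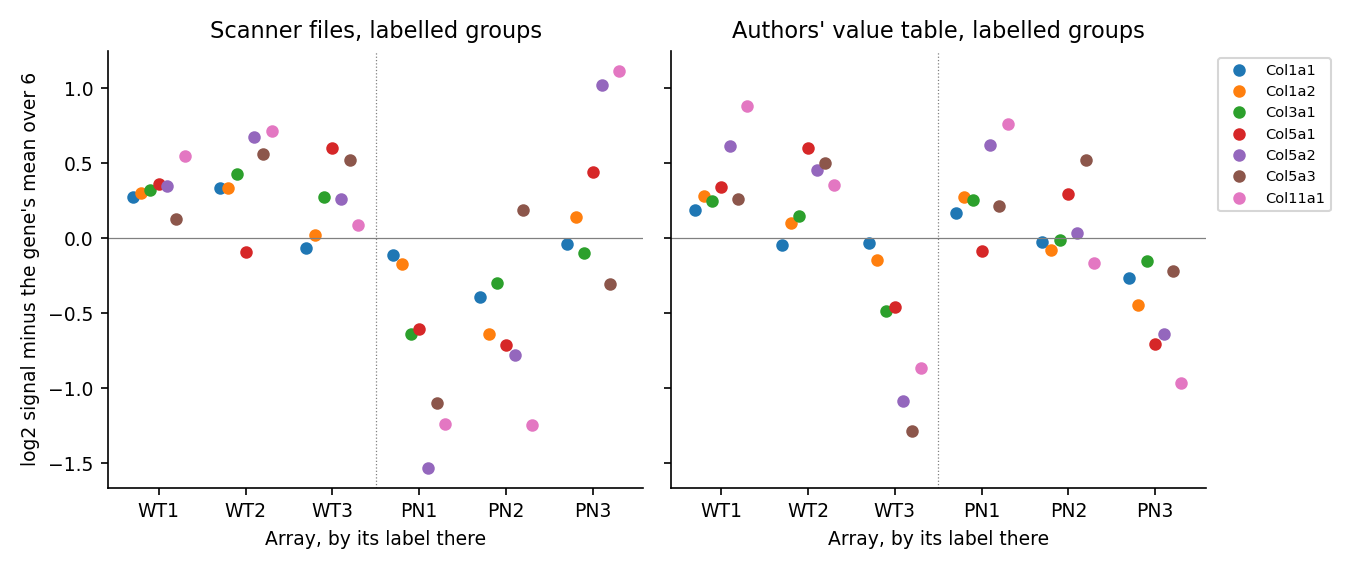
Log2 signal of each fibrillar collagen (brightest probe) on each array minus that gene's mean over the 6, in the scanner files (left) and the value table (right), with arrays placed by their label there and a dotted line between the labelled groups. The median of the 7 is lowest on files PN1 and PN2 on the left (−0.63 and −0.64) and in columns WT3 and PN3, the same 2 arrays, on the right (−0.48 and −0.45). Col5a3 is above its mean on file PN2, and Col1a1 is near its mean in column WT3.

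With the brightest probe of each gene, the median of the 7 members was lowest on the same 2 arrays in either source. Col5a3 and Col1a1 were exceptions. The dimmer probes of Col3a1, Col5a1, Col5a3 and Col11a1 were instead highest on file PN1, at −2.48, −0.35, −0.18 and −1.18. In column WT3, the same array, those of Col5a1, Col5a3 and Col11a1 were highest too. That of Col3a1 was lowest there, at 7.42. The dimmer Col1a1 probes were low on file PN1, at 2.70 and 0.13. The median of the 7 members' deviations from their own means was 0.33, 0.43 and 0.26 on files WT1, WT2 and WT3 and −0.63, −0.64 and 0.14 on files PN1, PN2 and PN3. The same median was 0.28, 0.35 and −0.48 in the wild type columns and 0.26, −0.01 and −0.45 in the Perp-null columns. With median scaling of the files, file PN2 was not low. The mean deviation of the 7 members was then −1.86 on file PN1 and 0.27 on file PN2. It was −0.04 and −0.0007 on files WT1 and WT3. With quantile normalization it was −0.71 and −0.56 on files PN1 and PN2. File PN1, with a high Perp signal, is column WT3, and file PN2, with a low Perp signal, is column PN3. Of these 2 arrays, 1 thus had a high Perp signal and the other a low one. Both lay on the same slide, together with file PN3, which was not low. Their Xist signals were −1.84 on file PN1 and −1.06 on file PN2, beside −2.18 on file WT2, which was not low either. Files WT1, WT3 and PN3 had Xist signals of −6.96, −7.13 and −7.89. The part of slide or sex in these values was not tested. Col5a3 was not low on file PN2, at 0.20 against 0.14 on file WT1, and Col1a1 in column WT3, at 15.84, was not below column WT2, at 15.83. For the columns, with the slide taken from the matched files, the median difference of the 7 was 0.08 between the columns on the first slide (range −0.56 to 0.15, 2 of 7 lower, 2 wild type columns and 1 Perp-null column). It was −0.10 on the other slide (range −0.30 to 1.07, 4 of 7 lower, 1 column of each genotype). Column PN2 has no known slide and is not in these values. In whole tissue, fewer cells that make collagen and less collagen RNA per cell cannot be told apart.

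Leaving out arrays moved these values. Without any single file, all 7 collagens stayed lower and none was called, and the median ran from −0.86 without file PN3 to −0.46 without file PN1. Without the 3 files whose Perp signal went against the label, files WT1, WT3 and PN2 remained, the 3 arrays whose genotype was the same in both sources. This leaves 1 Perp-null array against 2, so the fit has no measure of the spread within Perp-null and takes it from the wild type pair. All 7 collagens were lower on file PN2, with a median of −0.80, from Col11a1 at −1.56, Col5a1 at −1.19 and Col5a2 at −1.08 to Col1a2 at −0.80 and Col3a1 at −0.60 among the 5 that were called (limma). In that fit 12078 of 26625 features (45.4%) were called, 10557 of them lower (39.7%), so little can be read from the members' calls. File PN2 also had the dimmest negative controls of the 6, lay on another slide, and had an Xist signal of −1.06 against −6.96 and −7.13 on files WT1 and WT3. The part of these in the result was not tested. The direction on file PN2 also depended on the scaling. With median scaling the mean deviation of the 7 members was 0.27 on file PN2, above −0.04 and −0.0007 on files WT1 and WT3. Col11a1 was still lower there, at −0.42 against 0.18 and −0.15. Without the 3 files in which Xist and the Y-linked genes contradicted the labelled sex, files WT1, WT3 and PN3 remained. This again leaves 1 array labelled Perp-null, and its Perp signal of 5.97 was at the level of the wild type files. The median was then −0.04, 5 of 7 collagens were lower, Col5a2 was at 0.71 and Col11a1 at 0.80, and none was called, beside 32 of 26659 features (0.12%; limma).

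Probes of the same collagen did not always follow each other. Col1a1 had 3 probes, and A_51_P377094 gave 5.08, 5.31 and 4.59 on the wild type files and 2.70, 2.30 and 5.86 on the Perp-null files. A_52_P658611 gave 2.27, 1.81 and 1.16 on the wild type files and 0.13, −1.01 and 2.56 on the Perp-null files. On both, file PN3 was the highest of the 6 and files PN1 and PN2 were the lowest, whereas the brightest probe spanned only 4.52 to 5.25. The standard deviation over the 6 arrays of the difference between the gene's 2 brightest probes was 1.28 log2 units, beside a median of 0.32 over 4835 genes with several probes, and 93.2% of those genes had a smaller one. The value was 0.54 for Col3a1, 1.22 for Col5a1, 2.89 for Col5a3 and 1.11 for Col11a1. Over the columns Col1a1 again stood high at 1.04, above 95.9% of genes. Columns WT3 and PN3 were low on A_51_P377094, at 13.96 and 13.19, while the brightest probe read 15.84 and 15.61 there.

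**Figure D4:**
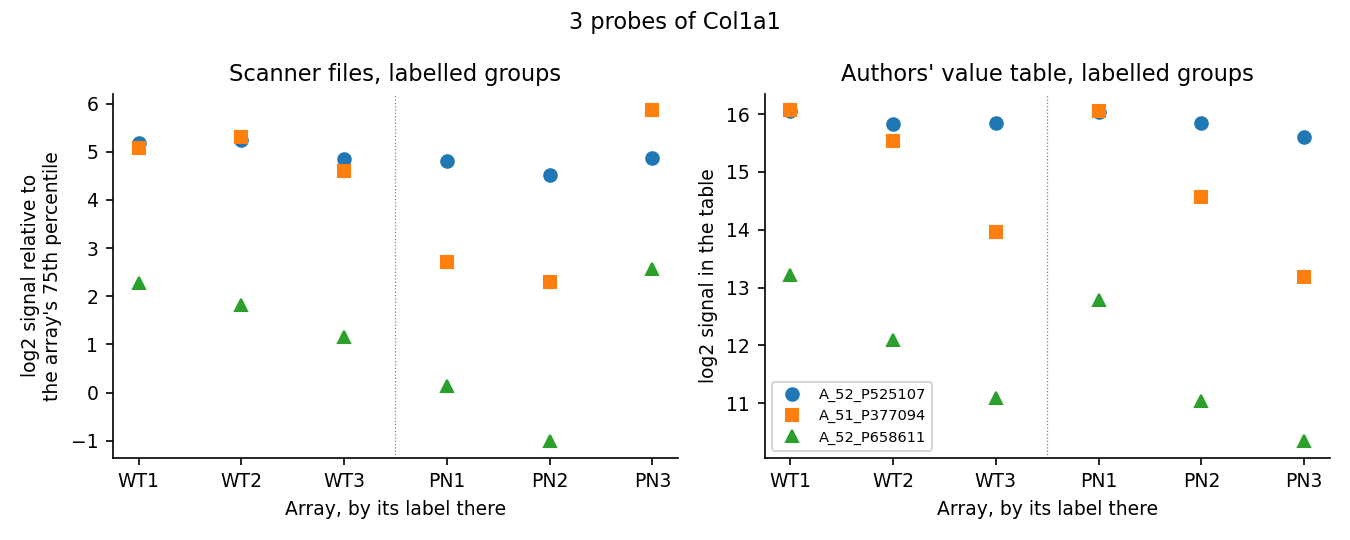
Log2 signal of the 3 Col1a1 probes on each array, in the scanner files (left, relative to each array's 75th percentile) and the value table (right), arrays by their label there. The brightest probe (circles) stays within 4.52 to 5.25 on the left, while the square and triangle probes are lowest on files PN1 and PN2 and highest on file PN3.

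Dimmer second probes gave collagen calls in the value table. With every probe as a feature of its own, 0 of 13 collagen probes were called in the files (0% of 33736 probes; limma, 2 of 13 at an unadjusted p under 0.05), with 12 of 13 lower beside 60% of all probes and 1 of 13 separated beside 3.42%. Among the columns 2 of 13 were called, both lower, beside 23.1% of 33736 probes called and 13.7% called lower, and 9 of 13 were lower beside 46.9% of all probes. The probe A_52_P237371 of Col5a1 read 9.78, 9.63 and 10.42 in the wild type columns and 8.68, 8.75 and 8.39 in the Perp-null columns, a difference of −1.34 (SE 0.28; limma adjusted p = 0.0206). The probe A_52_P503796 of Col5a3 read 9.61, 9.51 and 10.81 against 8.14, 7.77 and 7.12, a difference of −2.30 (SE 0.42; limma adjusted p = 0.0206). On both, the groups did not overlap, nor did they on the dimmer Col11a1 probe (A_52_P507877, difference −0.34, limma adjusted p = 0.336). Thus 3 of 13 collagen probes were separated in this direction, beside 23% of all probes. In the files the Col5a3 probe gave −1.32, −3.92 and −1.48 on the wild type files and −0.18, −7.28 and −2.16 on the Perp-null files. It was highest on file PN1, whose negative controls were the brightest, and lowest on file PN2, whose negative controls were the dimmest. Columns PN1 and PN3 come from the 2 arrays with the dimmest negative controls, at 37.5 and 32, and the 3 wild type columns from arrays at 90, 80 and 127. The part of background brightness in these calls was not tested. The second probe of Col3a1 (A_52_P684242) was higher in the Perp-null columns, 8.98, 8.94 and 8.62 against 8.06, 8.35 and 7.42, with no overlap, as for 20.6% of all probes in this direction, and an adjusted p of 0.0602 (limma). With the mean of a gene's probes in place of the brightest, Col5a1 at −0.83 (adjusted p = 0.0252) and Col5a3 at −0.98 (adjusted p = 0.0295) were called lower in the value table (limma), beside 24.3% of features called and 15% called lower.

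Calls in the value table lay among dim features. Of the features in the dimmest quartile of mean signal 43.8% were called, of the second quartile 45.4%, of the third 4.41% and of the brightest 0.375%. The brightest probes of 6 collagens were in the brightest quartile, and that of Col5a3 was in the third. The 6269 calls became 1 without column PN2, 787 without PN3, 2662 without WT3, 3188 without WT1, 5320 without WT2 and 5899 without PN1. Features with an unadjusted p under 0.05 numbered 9561 with all 6 columns, 7970 without PN2 and 7976 without PN3. With the replicate number as a block 1 was called, and with the slide as a block, over the 5 columns whose slide is known, 1 was called.

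**Figure D5:**
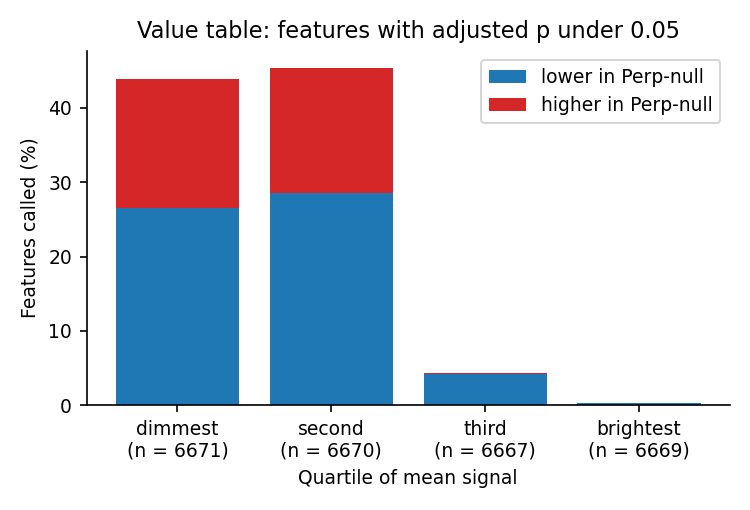
Share of features called at an adjusted p under 0.05 (limma, vertical axis, percent) in the authors' value table, by quartile of mean signal, with blue for lower and red for higher in the columns labelled Perp-null. The share is 43.8% and 45.4% in the dimmer quartiles and 0.375% in the brightest, which holds 6 of the 7 collagens.

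The wider collagen pathway, 89 genes on 9 lists of which 75 were tested, was compared in the same fits. In the files 64 of 75 had a lower mean, none was called (limma, 4 at an unadjusted p under 0.05), and the median was −0.28. By the columns, 51 of 75 were lower, beside 48.7% of all features, and the median was −0.08. There 5 of the 75 (6.67%) were called, all lower, beside 23.5% of all features called and 14.9% called lower. Of the other fibrillar collagen chains, 2 of 4 were lower in either source. Col11a2, the α2 chain of type XI, was at −1.07 (SE 0.78) in the files and −0.78 (SE 0.73) in the table, and Col27a1, a cartilage collagen, was at 0.13 (SE 0.25) and 0.26 (SE 0.19). Neither was called in either source (limma).

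Among the genes that modify and fold procollagen, 17 of 17 were lower in the files and 13 of 17 in the table, with none called. Colgalt2, a collagen galactosyltransferase, was at −1.34 (SE 0.71) in the files and at 0.70 (SE 0.72) in the table. Of the genes of procollagen export, 9 of 12 were lower in the files and 8 of 12 in the table. Sec24d, a subunit of the COPII coat that carries procollagen out of the endoplasmic reticulum, was at −0.57 (SE 0.26) and −0.16 (SE 0.24). Klhl12, a ubiquitin ligase adaptor that enlarges COPII vesicles, was at 0.22 (SE 0.18) and −0.16 (SE 0.23). None of these was called in either source (limma).

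Of the genes of propeptide cleavage, 5 of 6 were lower in the files and 4 of 6 in the table. Pcolce, an enhancer of C-propeptide cleavage, gave 6.11, 6.20 and 5.91 on the wild type files and 4.38, 5.02 and 6.18 on the Perp-null files. Files PN1 and PN2 were again the low ones, and the difference was −0.88 (SE 0.43) in the files and 0.13 (SE 0.39) in the table. Pcolce2, a second enhancer, was at 0.60 (SE 0.28) in the files and −0.19 (SE 0.29) in the table. All 4 cross-linking enzymes tested were lower in either source, with Loxl1, a lysyl oxidase known for elastic fibres, at −0.62 (SE 0.26) and −0.01 (SE 0.34). No gene of these lists was called in the files (limma).

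Of the fibril-associated collagens and fibril nucleators, 3 of 4 were lower in the files and 2 of 4 in the table. Col16a1, a fibril-associated collagen, gave 2.95, 3.12 and 3.08 on the wild type files and 2.10, 2.27 and 2.75 on the Perp-null files, with no overlap, as for 3.49% of all features in this direction, and a difference of −0.68 (SE 0.18; limma adjusted p = 1.00). In the table its groups overlapped, with a difference of −0.22 (SE 0.22). Col14a1, another fibril-associated collagen, was at 0.04 (SE 0.18) in the files and 0.10 (SE 0.16) in the table. All 7 collagen receptors and uptake genes tested were lower in either source, and Ddr2, a receptor kinase for fibrillar collagen, was at −0.71 (SE 0.33) and −0.02 (SE 0.33). The 6 genes of collagen breakdown were all lower in the files, and 3 were lower in the table. Mmp2, a gelatinase, was likewise among the 3.49% with no overlap in the files, at −0.94 (SE 0.32), and was at 0.46 (SE 0.44) in the table. Of the regulators of collagen transcription, 11 of 15 were lower in the files and 8 of 15 in the table. Tgfbr1, a receptor for TGF-β, was at −0.54 (SE 0.29) and −0.09 (SE 0.28), and Nfyb, a subunit of the factor that binds CCAAT, was at 0.21 (SE 0.17) and 0.11 (SE 0.22).

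The 5 pathway genes called in the value table were Adamts3 at −2.17 (SE 0.46) and Adamts14 at −1.73 (SE 0.35), both proteases that remove procollagen N-propeptides, the inhibitory collagen receptor Lair1 at −1.86 (SE 0.41), the collagenase Mmp1a at −1.03 (SE 0.24) and the tendon transcription factor Scx at −1.06 (SE 0.31). Their adjusted p-values lay between 0.0216 and 0.0433 (limma). With the mean of a gene's probes Lair1 was at −0.60 and was not called (limma adjusted p = 0.0689). Adamts3, Adamts14, Mmp1a and Scx stayed called. None of the 5 had a mean in the brightest quartile, and none was called in the files. Scx had the opposite sign there, at 0.18 (SE 0.73). Adamts3 gave −1.26, −3.34 and −1.61 on the wild type files and −0.13, −5.61 and −2.31 on the Perp-null files, highest on file PN1 and lowest on file PN2, like the second Col5a3 probe. Without column PN2, and likewise without column PN3, none of the 5 was called, while the differences stayed near their size, as for Adamts3 at −2.17 and −1.91 and Lair1 at −1.84 and −1.59.

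Among themselves, with the brightest probe of each, the members were most alike in their profiles for Col1a1 and Col1a2. Their mean-centred log2 values differed by a root mean square of 0.13 over the 6 files. Col5a2 and Col11a1 followed at 0.25, and Col5a3 and Col11a1 were the least alike at 0.86. The likeness of Col1a1 and Col1a2 rests on the Col1a1 probe used. Its brightest probe spanned 4.52 to 5.25 and Col1a2 spanned 5.44 to 6.41, whereas the Col1a1 probe A_51_P377094 spanned 2.30 to 5.86. Against the mean profile of the 7 members, the closest of 13229 other genes in the files were Fhl1 (0.083), Ddr2 (0.093), St3gal5 (0.106), Sec24d (0.107) and Fkbp10 (0.108). Over the columns none of these was among the closest 5, which were Gmfg, Pirb, Mfng, Serpinf1 and Crtap. In the files the members themselves lay further from their mean profile, from Col3a1 at 0.21 (rank 138) to Col11a1 at 0.50 (rank 5824). A gene close to the mean profile is thus not necessarily close to any 1 member. The closest gene to each member in the files was Ggact for Col1a1, Trem2 for Col1a2, Sh3bgrl for Col3a1, Stbd1 for Col5a1, Slc2a13 for Col5a2, Lcp1 for Col5a3 and Tcim for Col11a1. Tcim was the closest to Col11a1 in the value table as well.

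Marker lists of cell types were set beside the collagens, and none of their genes was called in the files (limma). An unadjusted p under 0.05 was seen in the files for 5 of 10 mesenchyme, 6 of 7 endothelium, 5 of 6 macrophage and 2 of 8 cartilage markers. No marker of the other lists had one, and the share over all features was 2.36%. In the table the same 4 lists had 0, 1, 0 and 4, beside 35.8% of all features. In the files 10 of 10 markers of dental mesenchyme and fibroblasts had a lower mean, with a median of −0.89, and the log2 of their summed signal was 6.70 to 7.15 on the wild type files and 5.34 to 6.70 on the Perp-null files, lowest on file PN1. By the columns, 1 of 10 was lower, with a median of 0.30. Of the endothelium markers 7 of 7 were lower in the files (median −1.12; summed signal 3.76 to 4.28 against 2.52 to 3.52) and 1 of 7 in the table (median 0.57). Of the markers of odontoblasts and bone 7 of 9 were lower in the files (median −0.39; summed signal 6.84 to 7.30 against 5.87 to 7.28) and 6 of 9 in the table (median −0.25). These also were lowest on files PN1 and PN2, at 5.97 and 5.87. Of the dental epithelium markers 5 of 9 were lower in either source, with medians of −0.10 and −0.01. Macrophage markers were lower for 6 of 6 in the files (median −0.81) and for 2 of 6 in the table (median 0.04). Skeletal muscle markers were lower for 0 of 7 in the files (median 0.76) and for 5 of 7 in the table (median −0.21). Cartilage markers were lower for 6 of 8 in the files (median −0.61) and for 7 of 8 in the table (median −0.41). Of these 8, 2 (25%) were called lower in the value table (limma), beside 14.9% of all features called lower and 23.5% called. Red blood cell markers were lower for 4 of 5 in the files (median −0.18) and for 1 of 5 in the table (median 0.16). The part of the tissue's makeup in the collagen values was not tested.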

How the data were processed

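Total RNA was amplified, labelled with Cy3 and hybridised to whole-genome mouse arrays, per the labels' protocols. The deposited scanner files hold spot intensity on a linear scale after background subtraction, made by the authors with Agilent Feature Extraction (10.3 per the submitters' processing notes, 10.5.1.1 per the file headers). The file headers name build mm9 for the array design, and the promoter windows alone come from GRCm38.p6. The authors' deposited value table holds log2 values from 4.95 to 17.86 with column medians of 8.36 to 8.39 and no centring of genes. How they were normalized is not given in the sources used here, and the ranks are those of the median spot signal without background subtraction.

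Scanner values were taken as log2 of the processed signal minus each array's 75th percentile, without the 1417 control spots and the spots with an outlier flag. Probes were named by RefSeq accession (24844 of 41174, 60.3%). Probes well above background on at least 3 arrays were kept, and a gene was represented by its brightest probe. limma 3.58.1 in R 4.3.3 (lmFit, eBayes, trend) compared the labelled groups. The p-values were adjusted by Benjamini-Hochberg across 26677 features, with calls at an adjusted p under 0.05. The method was tested on simulated data. The simulated noise was independent and of equal spread for all features, so it does not cover mixed labels, slides or unequal spread. The value table was planned as an alternative. Its fit of its own was added after the mismatch of its columns with the files had been seen, as were its alternatives and the slide taken from the match. No array was moved to another group on the strength of its signals.

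The members and lists were chosen with earlier results of these data known. The rule named all members, Perp, the genes with the smallest p per pathway list and direction and the closest profiles. Naming 1 gene per direction where the rule allowed 2, and naming the 5 pathway genes called in the value table, was decided after their values were seen. Same-numbered files deviated together (correlations of 0.843, 0.876 and 0.193 across genes), above the bound of 0.1 for treating them as pairs, and the number also gives the slide position. The main fit of the files was unpaired all the same, so its SEs and p-values take no account of pairs. The replicate number entered only as a block in an alternative fit. There 3 of the 7 collagens had an unadjusted p under 0.05, beside 672 of 26676 features, and none was called (limma). In the value table the correlations were 0.408, 0.393 and −0.023, and the numbers were not taken as pairs. Alternatives were other scalings, background correction (normexp, offset 50), filters, probe rules, variance estimates, array weights, blocks and left-out arrays.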

Additional observations from a re-analysis of the deposited data

How the results depend on the processing

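In the scanner files all 7 fibrillar collagens kept a lower mean under quantile normalization, median scaling, normexp, the other filters, probe rules and variance estimates, the replicate block and each left-out array. The count of features called was 0 in the main setting, 1 with normexp, 1 with the replicate block, which changed no other call, 560 with array weights, 12078 without the 3 files whose Perp signal went against the label and 32 without those whose sex signals did. With array weights, whose estimation stopped before converging and gave file PN3 a weight of 73.3, 1 collagen (Col3a1, −0.42, adjusted p = 0.0495, limma) and 2 pathway genes were called, beside 2.1% of all features. The members' median was then −0.0628, and the sign turned for Col5a1 (0.0353), Col5a2 (0.66), Col11a1 (0.71), Col11a2 (0.68), Sec24d (0.0363), Pcolce (0.13), Ddr2 (0.12) and Tgfbr1 (0.0698). Without the files that went against Perp, which leaves 1 Perp-null array, 5 collagens and 30 of 75 pathway genes were called, beside 45.4% of all features. Without those that went against the labelled sex, the median was −0.0405 and the sign turned for Col5a2 (0.71), Col11a1 (0.80), Col11a2 (0.83), Sec24d (0.033), Pcolce (0.17), Ddr2 (0.17) and Tgfbr1 (0.18). With the value table in place of the files, 6269 features and 5 pathway genes were called, the members' median was −0.0767, and the sign turned for Col3a1 (0.06), Col5a2 (0.0133), Col5a3 (0.35), Colgalt2 (0.70), Klhl12 (−0.16), Pcolce (0.13), Pcolce2 (−0.19) and Mmp2 (0.46). Col14a1 turned to −0.054 with median scaling and ran from −0.10 to 0.17 over left-out files, and Col27a1 ran from −0.0358 to 0.42. Of the 5 genes closest to the members' mean profile, 2 were shared with quantile normalization and 0 with the value table. All 5 were shared with median scaling, which had to be so. That scaling moves all genes on an array by the same amount and cannot change distances between genes. Within the value table, calls ran from 1 to 5899 over left-out columns and those of pathway genes from 0 to 9. They were 1 and 0 with the replicate block, 1 and 0 with the slide block over 5 columns, and 1 and 0 over these columns without it. 2 collagens were called with the mean of a gene's probes (24.3% of all features), where Col5a3 turned to −0.98, and 2 of 13 collagen probes and 12 of 115 pathway probes with every probe as a feature (23.1% of all probes). Over left-out columns Col1a1 ran from −0.18 to 0.035, Col1a2 from −0.34 to 0.0183, Col3a1 from −0.17 to 0.20, Col5a2 from −0.53 to 0.34, Col5a3 from −0.21 to 0.69 and Col11a1 from −0.74 to 0.18. Col11a1 turned to 0.04 with the slide block, and Scx was at 0.18 in the files. With median scaling of the files, the mean deviation of the 7 members on file PN2 was 0.27, so that file was no longer low. The causes of these turns were not tested.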
